A study of Mus musculus with 30 samples.

Results

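The genes described here are the secreted Wnt ligands, their receptors and their secreted antagonists, together with a small set of direct readouts of the pathway, in 30 mouse tumors grown from 5 fibrosarcoma lines. They were chosen by name alone: every gene of the count table whose mouse symbol is that of a Wnt, Frizzled, Dickkopf, Sfrp or R-spondin gene, plus Frzb, Wif1, Lrp5, Lrp6, Ror1, Ror2, Axin2, Lef1, Tcf7 and Notum. This gave 51 of the 48440 genes in the table: 19 ligands, 4 R-spondins, 10 Frizzled receptors, 4 coreceptors, 11 secreted antagonists (Notum among them) and 3 genes that act in the nucleus or in feedback, Axin2, Lef1 and Tcf7.

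The lines were each derived from 1 tumor that the carcinogen methylcholanthrene (MCA) had induced in a mouse, and were injected under the skin of new mice. The study asked which transcripts distinguish lines whose growth is held back by NK1.1+ cells from lines whose growth is not. Leukocytes were depleted with CD45 beads before RNA was extracted from the tumors and sequenced in bulk. MCA943 gave 4 tumors, MCA948 and MCA969 gave 8 each, MCA970 gave 6 and MCA972 gave 4. The study classes MCA943 and MCA969 as non-sensitive and MCA948, MCA970 and MCA972 as sensitive to NK1.1+ cells, so sensitivity is a property of the line and each class holds few lines. The labels give the genetic background of all tumors as C57BL/6 and state no age. Their strain entry is Ncr1Cre for MCA943 and Ncr1Cre R26DTA for the other lines, the latter being a combination in which cells that have used the Ncr1 promoter, NK cells and other NKp46+ cells, make diphtheria toxin A and die. The study induced the primary tumors in mice of these genotypes, and the growth entry gives C57BL/6 hosts for all tumors, so the strain entry is read here as that of the mouse of origin, which the labels do not say outright. The strain entry and line MCA943 cannot be told apart. Each line stands for 1 original tumor, and the labels do not say whether the tumors of a line came from separate batches of cultured cells, so p-values measure the spread between these tumors. For MCA969 tumors W-1D and W-2D the labels state the opposite sensitivity from the other 6 tumors of that line. They were kept in their line, and the calls of members that are lost without them are given below.

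Wnt proteins are lipid-modified ligands that bind a Frizzled receptor. With the coreceptors Lrp5 or Lrp6 they stop the destruction complex from degrading beta-catenin, which then drives transcription with the DNA-binding proteins Lef1 and Tcf7, whereas the receptors Ror1 and Ror2 serve branches that do not need beta-catenin. R-spondins raise the number of Frizzled receptors on the cell by clearing the ubiquitin ligases Znrf3 and Rnf43, and Sfrp, Frzb, Wif1, Dickkopf and Notum proteins restrain the ligands or their coreceptors outside the cell. In connective tissue the pathway is known for its part in the growth and differentiation of mesenchymal progenitors, and Axin2 and Notum are widely used as signs of beta-catenin activity because the pathway switches on these brakes on itself.

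Between 27745104 and 46537062 counts were assigned to genes in each tumor, with a median of 35039383. Levels are given as CPM, counts scaled to 1e+06 per library and corrected for library composition, with the SD between tumors. For comparing levels between different genes they are divided by transcript length and given as CPM per kb. All 7 mesenchymal markers (Col1a1, Col1a2, Col3a1, Vim, Pdgfrb, Fn1, Thy1) were counted in each line, with summed levels from 14166 to 20688 CPM in MCA948 to 63148 to 74431 CPM in MCA943, as the fibrosarcoma label states. The library numbers in the labels form 3 sets that hold the lines unequally: set 1 holds 6 MCA969 and 4 MCA972 tumors, set 2 holds 2 MCA948, 2 MCA969 and 6 MCA970 tumors, and set 3 holds 4 MCA943 and 6 MCA948 tumors. Values within a set are therefore given beside the results they alter. The MCA969 tumors of set 2 are W-1D and W-2D, so for MCA969 that set and these 2 tumors cannot be told apart. MCA943 shares no set with MCA969, MCA970 or MCA972, and MCA972 shares none with MCA948 or MCA970. For these pairs a value with the set as a covariate rests on the lines that span sets, MCA948 and MCA969. All but 1 of the titles also carry a letter, W or a, whose meaning the labels do not give. In MCA970 the markers of NK cells and ILC1 summed to 2.69, 17.9 and 20.5 CPM in the 3 W tumors. The 3 a tumors had 0.329, 0.774 and 0.776 CPM. W tumors also had higher sums in MCA943 (27.6 CPM in W-2G, its only W tumor, beside 4.61 to 6.31) and MCA948 (3.74 to 10.8 beside 2.39 to 2.77). In MCA969 the W tumors (1.49 to 3.74 CPM) and the a tumors (0.585 to 2.08) overlapped. MCA972 has no W tumor, so the letter is spread unequally over the lines. The part of these cells in the results was not tested. In bulk RNA, fewer cells that make a transcript and less of that transcript per cell cannot be told apart, and this holds for each difference below.

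Of the 51 members, 40 passed the filter on low counts. The 11 others were near the limit of detection: Wnt7a had no count in any tumor, Wnt3a, Wnt8b, Wnt9b, Sfrp5 and Dkk4 never exceeded 1 count, and Wnt3, Wnt1, Wnt8a, Dkk1 and Fzd10 reached at most 2, 3, 4, 8 and 22 counts in a tumor. A member can pass the filter through the line in which it is high, so counts over the members that passed describe these genes and are no evidence about the family. Per length of transcript, the most abundant members in MCA970 were Sfrp2, a secreted Frizzled-like antagonist (284 CPM per kb), Dkk2 (105), Dkk3 (59.9), Wnt5a, the typical ligand of the beta-catenin-independent branch (26), and Ror2, its receptor (21.7). In MCA943 the order of levels per length was different: Dkk3 was at 84 CPM per kb, Dkk2 at 60.2, Fzd2 at 29.1 and Wnt5a at 20.3, whereas Sfrp2 was at 1.52. A test of whether a gene differed between any of the 5 lines, with a difference of at least 1 on the log2 scale between some pair, called 36 members, against 58.0% of the 16862 genes tested. The 4 tested members that were not called were Fzd4 (adjusted p = 0.116) and Fzd7, Lrp6 and Ror2, whose adjusted p was small (1.71e-05, 9.27e-06 and 1.98e-11) but whose lines lay within 1 on the log2 scale of each other. The plot of all tumors shows the tested members side by side.

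**Figure D1:**
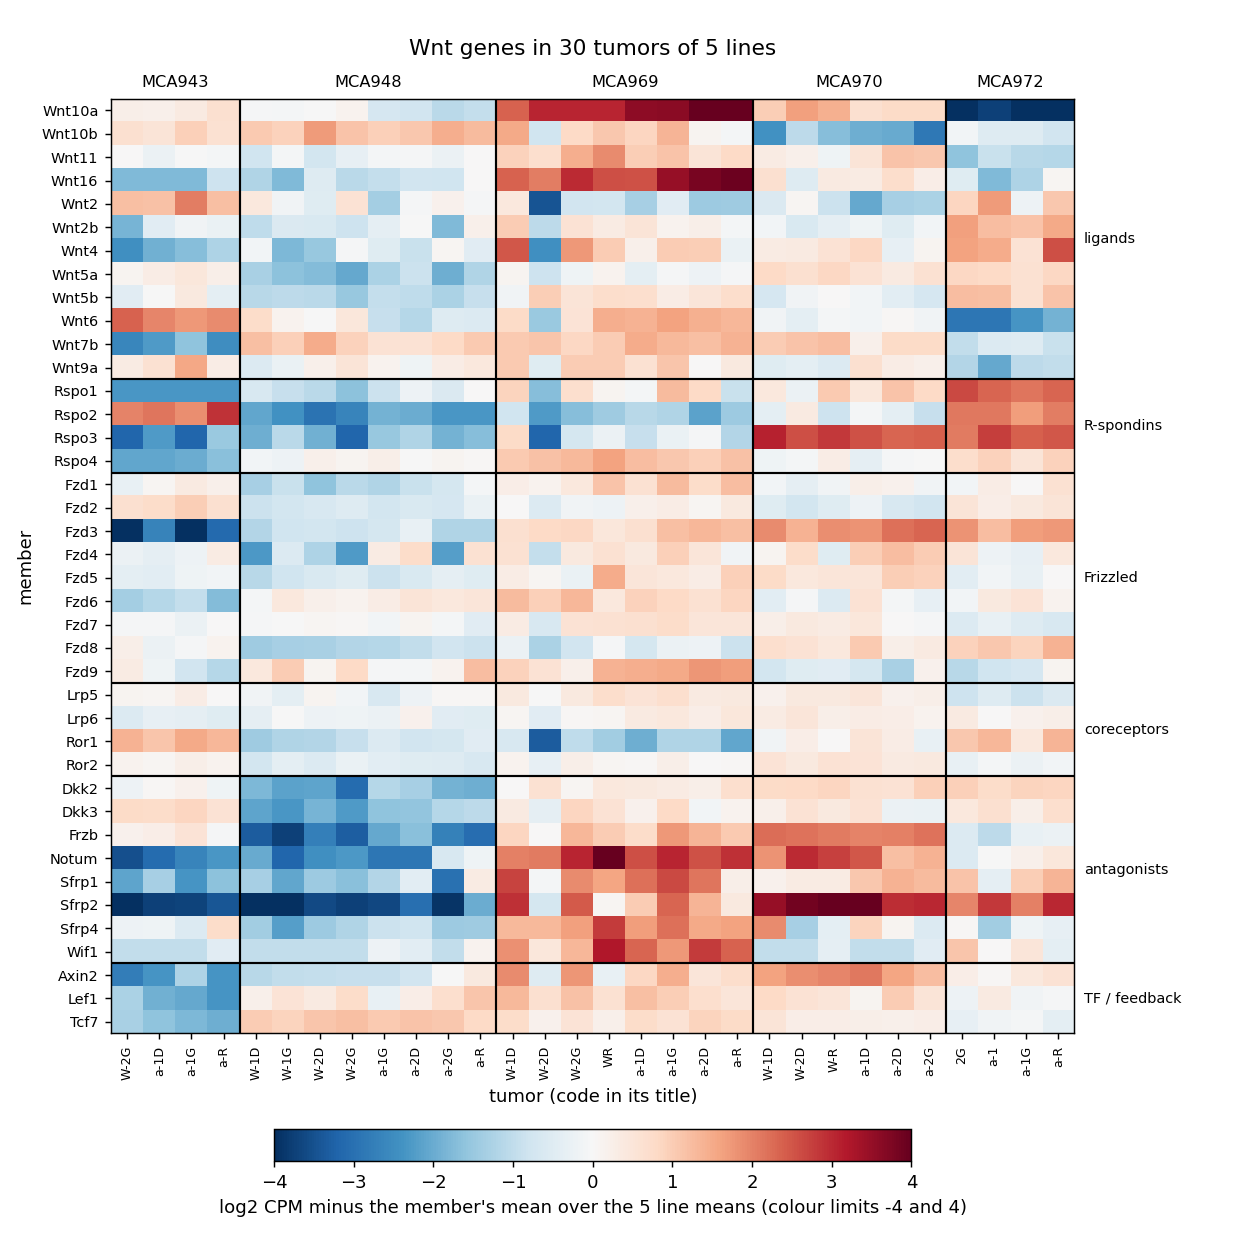
Levels of the 40 tested members (one per horizontal line, grouped by role) in the 30 tumors (one per column, grouped by line), as log2 CPM minus the mean of the member's 5 line means, with blue below and red above that mean. Sfrp2, Notum, Axin2 and Fzd3 are blue in the 4 MCA943 tumors and red in the 6 MCA970 tumors, and Wnt10a is red in the 8 MCA969 tumors and blue in the 4 MCA972 tumors.

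The lines were then compared pair by pair, which gives 10 comparisons that share lines with each other. A call needed an adjusted p under 0.05 over all genes tested and a log2 fold change of at least 1. Between MCA943 and MCA948, 13 members were higher in MCA943 and 9 in MCA948, against 17.7% and 11.3% of all genes. Between MCA943 and MCA969, 3 members were higher in MCA943 (12.1% of genes) and 19 in MCA969 (14.9%). Between MCA943 and MCA970, 6 were higher in MCA943 (12.6%) and 15 in MCA970 (14.8%), and between MCA943 and MCA972, 5 were higher in MCA943 (12.2%) and 17 in MCA972 (13.4%). MCA943 thus had more members below than above each of these 3 other lines. Between MCA948 and MCA969, no member was higher in MCA948 (3.91% of genes) and 22 were higher in MCA969 (16.8%). Between MCA948 and MCA970, 2 members were higher in MCA948 (9.64%) and 19 in MCA970 (19.8%), and between MCA948 and MCA972, 7 were higher in MCA948 (8.27%) and 20 in MCA972 (18.5%). MCA948 likewise had more members below than above these lines, and all genes leaned the same way in each of these 3 comparisons. Between MCA969 and MCA970, 10 members were higher in MCA969 (10.7%) and 7 in MCA970 (10.7%). Between MCA969 and MCA972, 13 were higher in MCA969 (10.3%) and 7 in MCA972 (10.3%), and between MCA970 and MCA972, 10 were higher in MCA970 (8.56%) and 8 in MCA972 (9.01%). The median absolute log2 fold change of the tested members ran from 0.82 (MCA969 against MCA970) to 1.86 (MCA943 against MCA969), beside 0.42 to 0.62 for all genes over the 10 comparisons. These make 212 calls of members. With the library-number set as a covariate 168 of them were still called, and 209 kept their direction. Within single sets, 20 of 21 calls between MCA943 and MCA948 that could be tested again were called, 20 of 20 between MCA969 and MCA972, 14 of 19 between MCA948 and MCA970, 10 of 16 between MCA969 and MCA970, and 1 of 17 between MCA948 and MCA969, that of Wnt10a, where the set holds 2 tumors of each line. The other calls between MCA948 and MCA969 given below thus have no call within a set beside them. The MCA969 tumors of that set are W-1D and W-2D, those with the differing label of sensitivity.

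**Figure D2:**
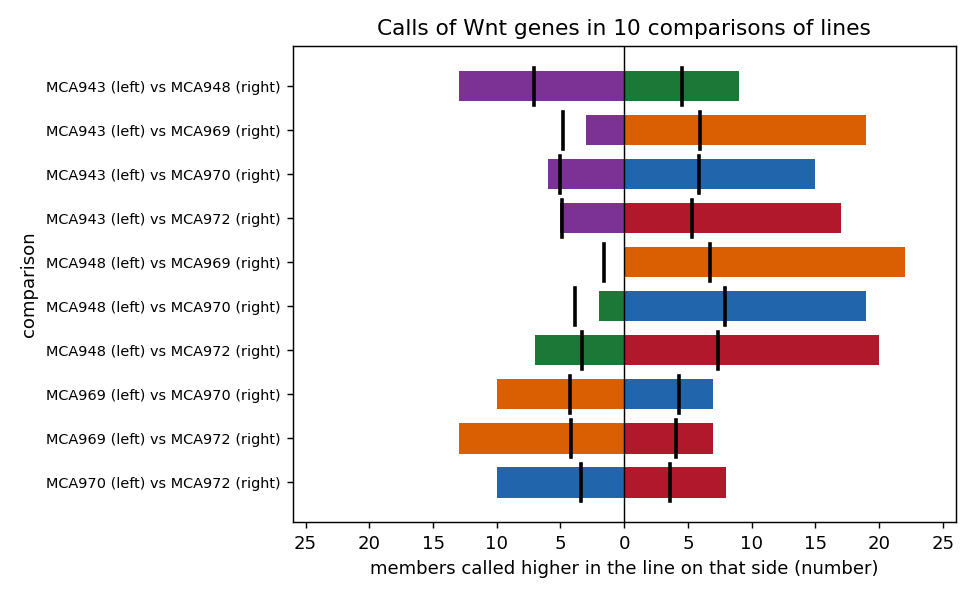
Number of members called in each of the 10 comparisons of lines (horizontal bars), to the left for members higher in the line named on the left and to the right for members higher in the line named on the right. Black marks show the number that the share of all tested genes called in that direction would give among 40 genes: the bar reaches 22 for MCA969 over MCA948 and 0 in the opposite direction.

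All 12 ligands that passed the filter, out of 19, differed between lines, beside 58.0% of all genes tested. Wnt6 and Wnt10a, which both can act through beta-catenin, lie next to each other on chromosome 1 (GRCm38), Wnt6 at chr1:74771892-74785322 and Wnt10a at chr1:74791516-74804179, both on the forward strand with 6193 bases between them. Of the 4 promoters printed here, that of Wnt6 is shown because Wnt6 was the only member that separated both non-sensitive lines from each sensitive line, that of Rspo1 because this R-spondin had no count in MCA943, that of Axin2 because it is the classical feedback target, and that of Wnt11 because it held the letters searched for. RefSeq promoter windows, from 250 bases before to 50 after the start, were found for 34 of the 51 members. They were searched on both strands for CTTTGAT and CTTTGAA, letters of the type that Lef1 and Tcf7 bind. The letters CTTTGAT stood in a window of Wnt11 and of Wnt5b, and CTTTGAA in that of Dkk1. Among all 32851 windows, 3.73% held CTTTGAT and 5.14% CTTTGAA. The 2 searches overlap in their first 6 letters and cannot match the same bases. The sequences are the 250 bases before each start, 5′ to 3′ on the gene's own strand, which is the forward strand for these 4 genes (GRCm38.p6), at chr1:74771642-74771891 for Wnt6, chr4:124986180-124986429 for Rspo1, chr11:108920099-108920348 for Axin2 and chr7:98834862-98835111 for Wnt11. Capitals mark the match, CTTTGAT read on the other strand, which begins 51 bases before the start of Wnt11.
Wnt6: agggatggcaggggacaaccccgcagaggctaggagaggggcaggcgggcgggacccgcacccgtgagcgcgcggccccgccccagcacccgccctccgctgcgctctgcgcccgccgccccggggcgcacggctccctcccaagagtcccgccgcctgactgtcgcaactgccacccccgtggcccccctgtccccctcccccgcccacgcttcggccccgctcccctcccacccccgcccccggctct
Rspo1: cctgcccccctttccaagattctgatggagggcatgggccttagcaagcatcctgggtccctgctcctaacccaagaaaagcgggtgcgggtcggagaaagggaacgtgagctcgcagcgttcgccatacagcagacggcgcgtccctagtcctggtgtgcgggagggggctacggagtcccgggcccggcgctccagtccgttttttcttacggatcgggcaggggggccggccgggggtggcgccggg
Axin2: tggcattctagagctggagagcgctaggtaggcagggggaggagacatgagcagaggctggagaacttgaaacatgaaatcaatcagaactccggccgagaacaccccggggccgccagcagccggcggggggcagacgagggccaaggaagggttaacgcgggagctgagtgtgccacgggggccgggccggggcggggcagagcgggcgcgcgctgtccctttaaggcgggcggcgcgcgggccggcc
Wnt11: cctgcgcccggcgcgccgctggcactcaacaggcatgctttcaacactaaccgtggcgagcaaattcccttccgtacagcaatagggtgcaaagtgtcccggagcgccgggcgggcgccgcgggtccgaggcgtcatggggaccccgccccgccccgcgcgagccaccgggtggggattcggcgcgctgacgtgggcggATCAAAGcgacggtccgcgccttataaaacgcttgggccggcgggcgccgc

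Wnt6 was at 1.32, 1.47, 1.53 and 2.07 CPM in MCA943. It lay between 0.0928 and 1.2 CPM (median 1.0) in MCA969, between 0.133 and 0.624 CPM (median 0.294) in MCA948 and between 0.257 and 0.372 CPM (median 0.324) in MCA970. In MCA972 it was at 0, 0, 0.0244 and 0.0557 CPM, which is 3 counts over the 4 tumors. The MCA943 tumors lay above the tumors of each other line, whereas those of MCA969 overlapped those of MCA948 and, through tumor W-2D alone, those of MCA970. Compared with MCA948, Wnt6 was higher in MCA943 (log2 fold change 2.27, SE 0.38, adjusted p = 5.23e-06) and in MCA969 (log2 fold change 1.33, SE 0.33, adjusted p = 0.00106), and compared with MCA970 the log2 fold changes were 2.30 (adjusted p = 2.23e-05) and 1.35 (adjusted p = 0.00246). Against the 3 counts of MCA972 the ratio of counts per depth was 80.3 for MCA943 (95% exact counting interval 27.1 to 393) and 42.4 for MCA969 (14.4 to 207). Wnt6 was thus the only member that was higher in MCA943 and in MCA969 than in each of MCA948, MCA970 and MCA972, which takes 6 calls. This held for 0.652% of all genes (1 member), and the opposite pattern for 0.225% (no member). Wnt6 is on a list that the study drew from these tumors, so this is no independent evidence. Of the 6 calls, 2 were lost with the library-number set as a covariate, MCA969 over MCA948 (log2 fold change -0.69 for MCA948 relative to MCA969, adjusted p = 0.463) and MCA969 over MCA970 (0.23, adjusted p = 0.732). Wnt6 was a low transcript throughout, with a highest level of 2.07 CPM in any tumor.

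Its neighbour Wnt10a had a different order of lines. It lay between 11.2 and 37.1 CPM (median 22.2) in MCA969, between 3.35 and 6.88 CPM (median 4.0) in MCA970 and between 0.99 and 2.4 CPM (median 1.67) in MCA948. The MCA943 tumors were at 2.49, 2.54, 2.8 and 3.35 CPM and those of MCA972 at 0.0244, 0.0521, 0.0557 and 0.109 CPM. Each MCA969 tumor lay above, and each MCA972 tumor below, the tumors of the other 4 lines. MCA969 was higher than MCA970, the next line (log2 fold change 2.37, SE 0.25, adjusted p = 2.72e-09), and MCA972 was lower than MCA948, the next from the bottom (log2 fold change 4.72, SE 0.47, adjusted p = 7.65e-10). Between MCA969 and MCA972 the log2 fold change was 8.57, SE 0.47. Wnt9a, which also lies beside another Wnt gene (Wnt3a, near the limit of detection here), was called lower in MCA972 than in each other line too, at 5.1 ± 1.5 CPM (n = 4) beside 12.4 ± 4.34 CPM in MCA970 (n = 6), the next line (log2 fold change 1.28, SE 0.32, adjusted p = 0.00147), and the replicate block ended that call (log2 fold change 1.34, adjusted p = 0.0539).

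Wnt16 was highest in MCA969. It lay between 0.712 and 2.73 CPM (median 1.24) there, and between 0.0736 and 0.248 CPM (median 0.181) in MCA970, between 0 and 0.131 CPM (median 0.0461) in MCA948, at 0, 0.0244, 0.0782 and 0.139 CPM in MCA972 and at 0, 0, 0 and 0.049 CPM in MCA943, where the total was 2 counts. No tumor of another line reached the lowest MCA969 tumor. MCA969 was higher than MCA970 (log2 fold change 3.06, SE 0.41, adjusted p = 2.78e-07) and MCA948 (log2 fold change 4.85, SE 0.43, adjusted p = 9.58e-11), and its ratio to MCA943 was 109.6 (95% exact counting interval 30.2 to 908).

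Wnt7b, a ligand that can act through beta-catenin, was low in MCA943, where Wnt6 was high. It was at 4.27, 4.7, 5.5 and 8.65 CPM in MCA943 and at 13.2, 14.2, 18 and 18.4 CPM in MCA972, and lay between 39.1 and 73.5 CPM (median 51.1) in MCA948, between 46.9 and 73.5 CPM (median 58.7) in MCA969 and between 30.5 and 61.8 CPM (median 49.3) in MCA970. The latter 3 lines overlapped and were not called against each other, and MCA943 and MCA972 each lay apart below them. MCA943 was lower than MCA972 (log2 fold change 1.47, SE 0.22, adjusted p = 1.65e-06), and MCA972 lower than MCA970 (log2 fold change 1.62, SE 0.20, adjusted p = 1.41e-07). Wnt10b, which is known for holding mesenchymal cells back from becoming fat cells, lay between 0.484 and 1.84 CPM (median 0.928) in MCA970, lower than in each other line. It lay between 7.36 and 12.5 CPM (median 8.36) in MCA948 and between 2.2 and 11.1 CPM (median 6.9) in MCA969, and was at 5.47, 5.9, 6.03 and 7.48 CPM in MCA943 and at 2.23, 2.67, 2.69 and 3.52 CPM in MCA972. The 4 adipocyte markers (Adipoq, Fabp4, Cidec and Plin1, the last at 0 in MCA970) summed to 7.08 to 32 CPM in that line. In other lines they reached at most 14.2 CPM, in MCA948 tumor a-R. Within MCA970 the tumors with the lowest sums also had the lowest sums of the endothelial markers. MCA970 tumors W-R and W-1D had 7.08 and 8.24 CPM beside endothelial sums of 263 and 296 CPM. The other MCA970 tumors had 20.1 to 32 CPM beside 468 to 503 CPM, and MCA948 a-R had an endothelial sum of 358 CPM. In MCA969 the sums did not move together: a-R had 1.51 CPM beside 62.6 CPM, W-2D 9.34 beside 73.9 and W-1D 4.02 beside 199. The part of either cell type in these sums and in the level of Wnt10b was not tested. For Wnt10b the MCA970 tumors did not overlap those of another line, and MCA972, the next line up, was higher (log2 fold change 1.5, SE 0.33, adjusted p = 0.000488), a call that the replicate block ended (log2 fold change -1.38 for MCA970 relative to MCA972, adjusted p = 0.0885). The call of MCA943 over MCA972 was lost with the library-number set as a covariate (log2 fold change 1.35, adjusted p = 0.125) and with the replicate block (1.34, adjusted p = 0.053), and that of MCA969 over MCA972 with the block (1.35, adjusted p = 0.0596).

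Wnt5a was the most abundant ligand per length in the lines other than MCA948, where it was at 6.1 CPM per kb and Wnt7b at 11.8. Its mean was 47.7 ± 13.5 CPM in MCA948 (n = 8), lower than in MCA969, the next line, at 117 ± 22.5 CPM (n = 8; log2 fold change 1.30, SE 0.14, adjusted p = 2.49e-09), and it was 159 ± 15.8 in MCA943 (n = 4), 203 ± 23.6 in MCA970 (n = 6) and 223 ± 14.9 in MCA972 (n = 4). Those 4 lines were not called against each other. The related Wnt5b was at 1.52 ± 0.20 CPM in MCA948 and 7.04 ± 1.28 CPM in MCA972 (log2 fold change 2.21, SE 0.18, adjusted p = 1.18e-11). Wnt2b was higher in MCA972, at 1.74, 1.86, 2.28 and 2.45 CPM, than in each other line, whose means were 0.501 (MCA943) to 0.950 CPM (MCA969), the smallest of these differences being that to MCA969 (log2 fold change 1.13, SE 0.30, adjusted p = 0.0022). With the title letter as a covariate that difference fell under the threshold on the fold change (-0.91 for MCA969 relative to MCA972, adjusted p = 0.0363), and with the replicate block it did not pass either threshold (-0.85, adjusted p = 0.201). The block also ended the call against MCA970 (-1.34 for MCA970 relative to MCA972, adjusted p = 0.0944). Wnt4 and Wnt11, ligands with roles in both branches, had means from 0.034 to 0.942 CPM and from 0.825 to 4.22 CPM over the lines, and Wnt2 from 0.28 to 1.61 CPM.

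**Figure D3:**
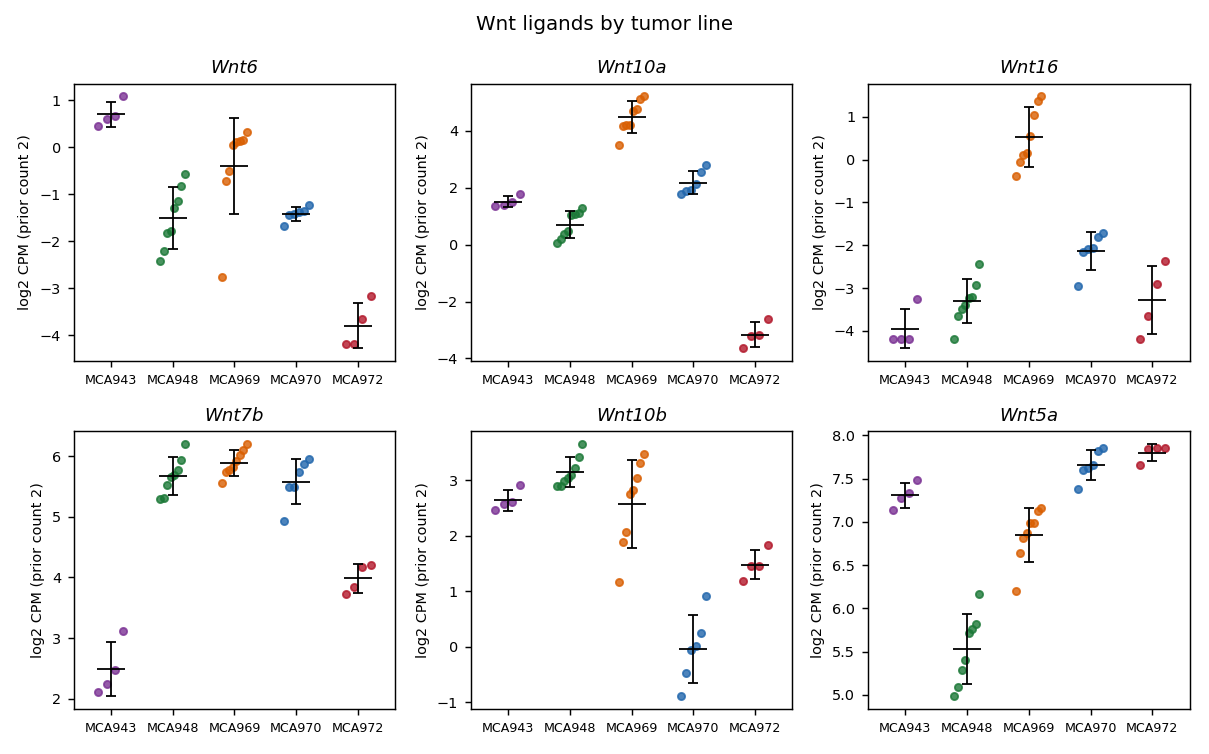
Levels of 6 Wnt ligands as log2 CPM (prior count 2) for each tumor (points, ordered by value within a line), with the mean and SD of each line (black). Wnt6 is highest in MCA943 and lowest in MCA972, Wnt10a and Wnt16 are highest in MCA969, Wnt7b is lowest in MCA943, Wnt10b is lowest in MCA970 and Wnt5a is lowest in MCA948.

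All 4 R-spondins passed the filter and were called, beside 58.0% of all genes tested, and each had its own order of lines. Rspo1 was not counted in any MCA943 tumor, which allows up to 0.0906 CPM on average at 3 counts per library, a limit that covers counting error only. It was at 1.17, 1.34, 1.34 and 1.69 CPM in MCA972, which lay above each other line, and lay between 0.184 and 0.559 CPM (median 0.382) in MCA970, between 0.0309 and 0.613 CPM (median 0.315) in MCA969 and between 0.0338 and 0.229 CPM (median 0.113) in MCA948. MCA972 was at least 15.3-fold higher than MCA943 and higher than MCA970, the next line (log2 fold change 1.81, SE 0.41, adjusted p = 0.000664). For MCA948 over MCA943 the same bound was only 1.34-fold, under the threshold on the fold change, although the fit called that difference. MCA970 and MCA969 overlapped (adjusted p = 0.446). MCA972 over MCA970 was no longer called with the library-number set as a covariate (adjusted p = 0.138, and 0.186 with the replicate block), nor were MCA969 and MCA970 over MCA948 (adjusted p = 0.661 and 0.14).

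Rspo2 was at 5.82, 6.3, 7.05 and 11.7 CPM in MCA943 and at 5.04, 6.57, 6.82 and 6.9 CPM in MCA972, which overlapped (adjusted p = 0.394). It lay between 0.798 and 1.99 CPM (median 1.17) in MCA970, between 0.278 and 0.877 CPM (median 0.538) in MCA969 and between 0.152 and 0.381 CPM (median 0.261) in MCA948. The upper pair of lines lay apart from the lower 3, with MCA972 above MCA970 (log2 fold change 2.36, SE 0.26, adjusted p = 2.32e-08) and MCA943 above MCA948 (log2 fold change 4.80, SE 0.26, adjusted p = 1.67e-15). Rspo3 divided the lines differently: it lay between 2.45 and 4.18 CPM (median 2.91) in MCA970 and was at 2.03, 2.54, 2.76 and 3.33 CPM in MCA972, and these overlapped. It lay between 0 and 0.799 CPM (median 0.305) in MCA969 and between 0 and 0.183 CPM (median 0.0882) in MCA948 and was at 0, 0, 0.0493 and 0.122 CPM in MCA943. MCA972 was higher than MCA969 (log2 fold change 3.02, SE 0.42, adjusted p = 5.2e-07). MCA943 thus had the highest mean Rspo2 among the lines and the lowest mean of the other 3 R-spondins. Rspo4, the most abundant of them per length in 4 lines, was at 3.75 ± 0.515 CPM in MCA943 and 33.6 ± 4.87 CPM in MCA969 (log2 fold change 3.16, SE 0.14, adjusted p = 6.5e-17).

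Among the receptors, 9 of the 10 Frizzled genes passed the filter and 7 were called, beside 58.0% of all genes tested. Fzd3, a receptor best known from axon guidance and planar polarity, was at 0.0378, 0.0678, 0.171 and 0.247 CPM in MCA943. It lay between 0.782 and 1.51 CPM (median 1.06) in MCA948, between 2.59 and 4.81 CPM (median 3.32) in MCA969 and between 5.0 and 9.75 CPM (median 7.04) in MCA970 and was at 4.5, 6.06, 6.46 and 6.7 CPM in MCA972. MCA943 lay below each other line, MCA948 above it and below the remaining 3. MCA948 was higher than MCA943 (log2 fold change 2.84, SE 0.32, adjusted p = 5.48e-09) and lower than MCA969 (log2 fold change 1.80, SE 0.19, adjusted p = 2.64e-09). Fzd6, like Fzd3 linked to planar polarity, was also called lower in MCA943 than in each other line, at 6.16 ± 1.4 CPM beside 13.9 ± 4.3 CPM in MCA970 (log2 fold change 1.18, SE 0.20, adjusted p = 9.41e-06), a difference that was just under the threshold on the fold change with the library-number set as a covariate (-0.98 for MCA943 relative to MCA970) and also, by less, without MCA970 tumor a-1D (adjusted p = 2.34e-05). Fzd2, the Frizzled gene with the highest level per length in 4 lines, and Fzd1, which held that place in MCA969, had means from 41 (MCA948) to 107 CPM (MCA943) and from 24.4 (MCA948) to 79.2 CPM (MCA969).

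Fzd4, a receptor used by endothelial cells, did not pass the test over the 5 lines, and its 1 call among the pairs, MCA970 over MCA948 (log2 fold change 1.09, SE 0.41, adjusted p = 0.0192), was lost with the library-number set as a covariate (adjusted p = 0.253) and whenever MCA948 tumor W-1D, W-2D, W-2G or a-2G or MCA970 tumor a-2D was left out (log2 fold changes of -0.99 to -0.94 for MCA948 relative to MCA970). Within MCA948 it ranged from 0.973 to 8.42 CPM, and the 7 endothelial markers (Pecam1, Cdh5, Kdr, Tek, Tie1, Emcn and Cldn5, all counted in each line) summed to 20 to 358 CPM there. The 4 MCA948 tumors with the lowest Fzd4, W-1D, W-2G, a-2G and W-2D at 0.973, 1.01, 1.04 and 2.1 CPM, were those with the lowest endothelial sums, 22.8, 20, 40.7 and 55.5 CPM. The other 4 had 3.42 to 8.42 CPM of Fzd4 and sums of 106 to 358 CPM. The part of endothelial cells in the level of Fzd4 was not tested. The coreceptors Lrp5 and Lrp6, which pair with Frizzled in the beta-catenin branch, had means from 59.9 (MCA972) to 132 CPM (MCA969) and from 80.5 (MCA943) to 133 CPM (MCA970). Lrp5 was lower in MCA972 than in MCA969 (log2 fold change 1.14, SE 0.13, adjusted p = 1.09e-08). Ror1 was at 11.7 ± 1.36 CPM in MCA943 and 9.7 ± 2.57 CPM in MCA972, and at 5.04 ± 1.06 in MCA970, 2.46 ± 0.577 in MCA948 and 1.66 ± 0.78 in MCA969. MCA943 was higher than MCA969 (log2 fold change 2.81, SE 0.27, adjusted p = 4.39e-10), while the related Ror2 had no call in any pair, with means from 46.8 to 91.9 CPM.

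All 8 secreted antagonists that passed the filter, of 11, were called, beside 58.0% of all genes tested. Sfrp2 had the widest range in CPM. It was at 2.13, 3.33, 3.4 and 4.19 CPM in MCA943 and lay between 2.38 and 11.4 CPM (median 3.49) in MCA948. It lay between 27.7 and 339 CPM (median 104) in MCA969 and between 352 and 941 CPM (median 579) in MCA970 and was at 174, 183, 319 and 369 CPM in MCA972. The 12 tumors of MCA943 and MCA948 lay below the 18 others, and MCA943 and MCA948 overlapped (adjusted p = 0.514). MCA970 was higher than MCA943 (log2 fold change 7.54, SE 0.73, adjusted p = 7.9e-10) and than MCA969 (log2 fold change 2.09, SE 0.42, adjusted p = 0.000113), and the difference between MCA970 and MCA972 missed the threshold (adjusted p = 0.0526). Within library-number set 2 the call of MCA970 over MCA969 was lost (log2 fold change -1.72 for MCA969 relative to MCA970, adjusted p = 0.119). The 6 MCA970 tumors also had the highest median of endothelial markers, summing to 263 to 503 CPM beside 61 to 127 CPM in MCA943, 20 to 358 CPM in MCA948, 62.6 to 199 CPM in MCA969 and 47.9 to 126 CPM in MCA972, and the part of these cells in the level of Sfrp2 was not tested.

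Frzb, a close relative of the Sfrp proteins, lay between 6.01 and 7.14 CPM (median 6.67) in MCA970, above each other line, and between 0.0611 and 0.425 CPM (median 0.154) in MCA948, below each other line. It lay between 1.52 and 5.1 CPM (median 3.08) in MCA969 and was at 1.42, 1.69, 1.8 and 2.19 CPM in MCA943 and at 0.682, 0.99, 1.2 and 1.25 CPM in MCA972. MCA970 was higher than MCA969 (log2 fold change 1.04, SE 0.23, adjusted p = 0.000333), which fell under the threshold on the fold change without MCA969 tumor W-2D, without a-1D, or without both W-1D and W-2D (-0.99 to -0.88 for MCA969 relative to MCA970). MCA972 was higher than MCA948 (log2 fold change 2.40, SE 0.31, adjusted p = 9.56e-08). Sfrp1 was at 0.189, 0.237, 0.343 and 0.444 CPM in MCA943 and lay between 0.104 and 1.51 CPM (median 0.427) in MCA948, between 1.14 and 8.07 CPM (median 5.03) in MCA969 and between 1.36 and 3.23 CPM (median 2.05) in MCA970, with 0.928, 2.42, 2.74 and 3.14 CPM in MCA972. MCA969 was higher than MCA948 (log2 fold change 3.1, SE 0.43, adjusted p = 3.33e-07) although the highest MCA948 tumor overlapped the lowest of MCA969. With the library-number set as a covariate the calls of MCA970 and MCA972 over MCA943 (adjusted p = 0.0799 and 0.161) and over MCA948 (0.089 and 0.247) were lost.

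The Dickkopf genes set MCA948 apart. Dkk2, whose product binds Lrp5 and Lrp6, was at 63.9 ± 23.7 CPM in MCA948 (n = 8) and 223 ± 27.5 CPM in MCA943 (n = 4), the next line (log2 fold change 1.80, SE 0.19, adjusted p = 1.44e-09), and the other 3 means were 294 (MCA969), 388 (MCA970) and 416 CPM (MCA972). Dkk3, the divergent member of the family, was at 53 ± 18.3 CPM in MCA948 and at 201 ± 49.1 CPM in MCA970, the next line (log2 fold change 1.92, SE 0.20, adjusted p = 1.53e-09), with 282 CPM in MCA943 as the highest mean. The other 4 lines were not called against each other for either gene. MCA948 also had the lowest median sum of the mesenchymal markers, 17401 CPM beside 25245 CPM in MCA969, the next line, and the part of this in the levels of Dkk2, Dkk3, Frzb and Wnt5a was not tested. Within library-number set 2, where 2 tumors of each line could be compared, the log2 fold changes of Dkk2 and Dkk3 in MCA948 relative to MCA969 were -2.28 and -1.15 and were not called (adjusted p = 0.051 and 0.157). Wif1, which binds Wnt proteins directly, was counted at 0.451 ± 0.275 CPM in MCA969 and at a mean of at most 0.0906 CPM in the other lines (log2 fold change 2.26, SE 0.56, adjusted p = 0.00121, for MCA969 over MCA972), and Sfrp4 was at 7.42 ± 3.12 CPM in MCA969 beside 2.89 ± 2.57 CPM in MCA970 (log2 fold change 1.35, SE 0.37, adjusted p = 0.00231). With the library-number set as a covariate the higher Sfrp4 of MCA969 over MCA970 and MCA943 was no longer called (adjusted p = 0.204 and 0.17), nor was the higher Wif1 over MCA943 and MCA948 (adjusted p = 0.155 and 0.0568).

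**Figure D4:**
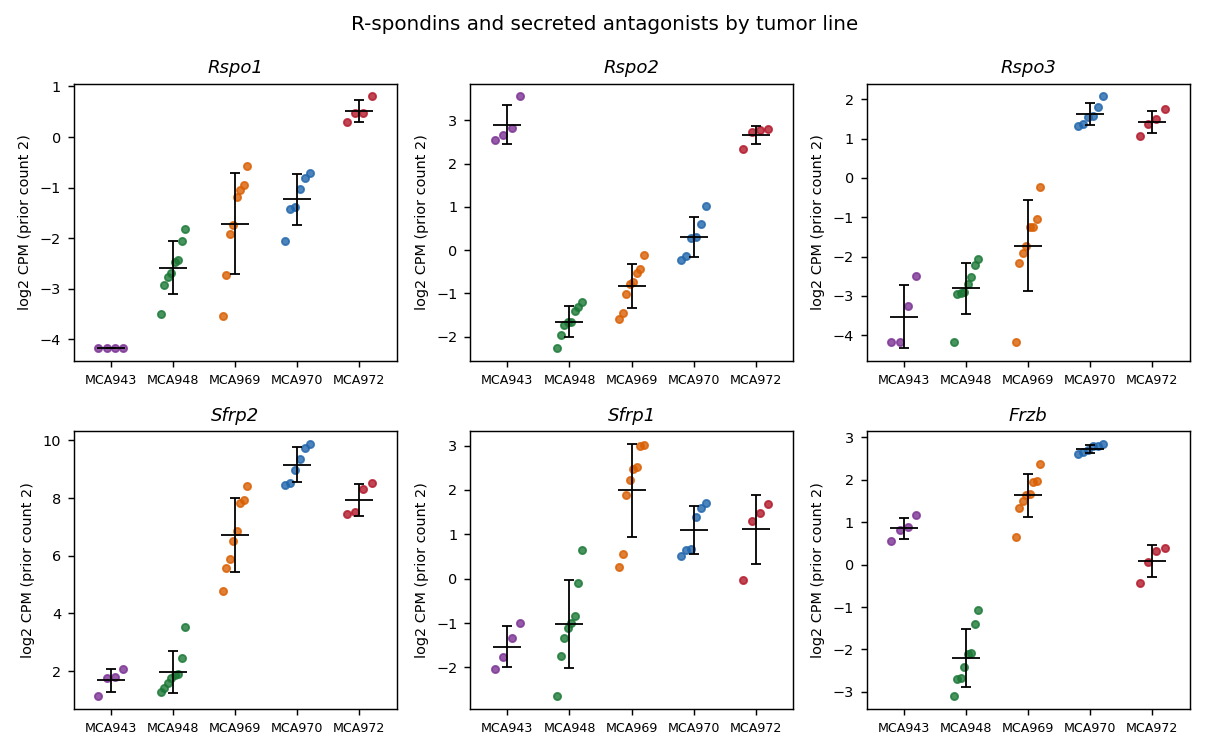
Levels of 3 R-spondins and 3 secreted antagonists as log2 CPM (prior count 2) for each tumor (points, ordered by value within a line), with the mean and SD of each line (black). Rspo1 is at 0 counts in the 4 MCA943 tumors, Rspo2 is high in MCA943 and MCA972, Rspo3 is high in MCA970 and MCA972, and Sfrp2 separates MCA943 and MCA948 from the other lines.

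The feedback targets and nuclear factors were each lower in MCA943 than in most other lines. Axin2, the scaffold that rebuilds the destruction complex, was at 0.779, 1.04, 1.05 and 2.34 CPM in MCA943. It lay between 2.54 and 7.4 CPM (median 2.92) in MCA948, between 3.9 and 20.9 CPM (median 9.58) in MCA969 and between 13.1 and 24.1 CPM (median 18.9) in MCA970 and was at 5.81, 6.72, 7.46 and 8.4 CPM in MCA972. The MCA943 tumors lay below those of each other line. MCA943 was lower than MCA948 (log2 fold change 1.55, SE 0.41, adjusted p = 0.00175) and than MCA970 (log2 fold change 3.88, SE 0.46, adjusted p = 3.11e-08), and MCA970 was higher than MCA972 (log2 fold change 1.42, SE 0.39, adjusted p = 0.00378). With the library-number set as a covariate the calls between MCA943 and MCA972, MCA948 and MCA969, and MCA970 and MCA972 were lost (adjusted p = 0.126, 0.195 and 0.103), the first of which the rule of being lower than each other line needs. Notum, an enzyme that removes the lipid from Wnt proteins and that is both an antagonist and a feedback target, was at 0.203, 0.296, 0.416 and 0.539 CPM in MCA943 and lay between 0.275 and 2.55 CPM (median 0.511) in MCA948. It lay between 12 and 66 CPM (median 20) in MCA969 and between 6.74 and 23.4 CPM (median 13.4) in MCA970 and was at 1.98, 2.87, 3.32 and 4.04 CPM in MCA972. MCA943 and MCA948 overlapped (adjusted p = 0.103), MCA969 and MCA970 overlapped (adjusted p = 0.0878), and the tumors of the latter pair lay above those of the former. MCA969 was higher than MCA943 (log2 fold change 6.05, SE 0.69, adjusted p = 1.38e-08) and MCA970 higher than MCA948 (log2 fold change 4.02, SE 0.46, adjusted p = 9.22e-09). The calls of MCA972 over MCA943 (log2 fold change 3.04) and over MCA948 (1.82) were lost with the library-number set as a covariate. Both then pointed the other way, with higher values in MCA943 (0.49, adjusted p = 0.7) and MCA948 (0.75, adjusted p = 0.428). MCA972 shares no set with either line, so these estimates rest on the MCA969 and MCA948 tumors that link the sets. As counted, each MCA972 tumor lay above the MCA943 tumors.

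Tcf7, which encodes T-cell factor 1, was at 4.5, 5.02, 5.72 and 7.11 CPM in MCA943 and at 13.4, 14.1, 16 and 16.6 CPM in MCA972. It lay between 30.7 and 40.9 CPM (median 36.7) in MCA948, between 19.7 and 32.7 CPM (median 27.9) in MCA969 and between 20.3 and 25.2 CPM (median 21) in MCA970. MCA943 lay below each other line and was lower than MCA972 (log2 fold change 1.43, SE 0.14, adjusted p = 1.49e-09) and MCA948 (log2 fold change 2.70, SE 0.14, adjusted p = 3.51e-16). Lef1 was at 1.4, 1.74, 1.92 and 3.08 CPM in MCA943 and at 6.38, 6.7, 7.21 and 9.52 CPM in MCA972, and lay between 6.0 and 15.9 CPM (median 10.2) in MCA948, between 10.3 and 18.4 CPM (median 13.2) in MCA969 and between 8.04 and 14.9 CPM (median 10.8) in MCA970. MCA943 again lay below each other line (log2 fold change 1.88, SE 0.26, adjusted p = 5.17e-07, for MCA972 over MCA943), and the other 4 lines were not called against each other. Tcf7 and Lef1 are also made by T cells. The 10 T-cell markers were Cd3e, Cd3d, Cd3g, Cd2, Cd8a, Cd4, Trac, Trbc2, Lck and Cd5, all counted in each line. Of these, Trbc2 is on the study's list of genes higher in non-sensitive tumors, and its part in the sums was not tested. The markers summed to 24.4 to 34.9 CPM in MCA943, where Tcf7 and Lef1 were lowest, and to 0.73 to 1.95 CPM in MCA948, where Tcf7 had its highest mean. They summed to 9.97 to 27 CPM in MCA969, where Lef1 had its highest mean, 2.75 to 6.29 in MCA970 and 4.91 to 8.78 in MCA972. The part of T cells in the levels of both genes was not tested.

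**Figure D5:**
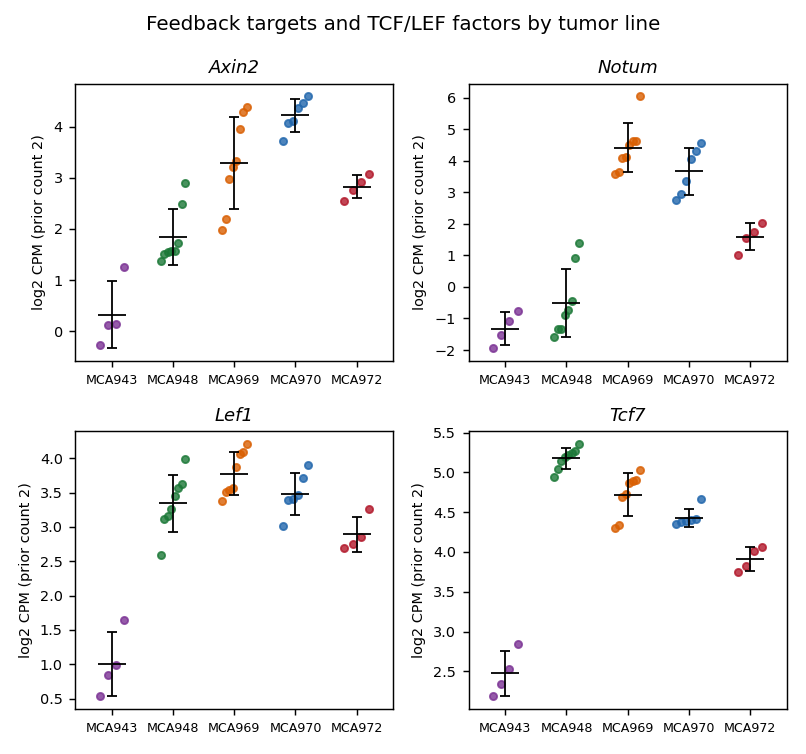
Levels of Axin2, Notum, Lef1 and Tcf7 as log2 CPM (prior count 2) for each tumor (points, ordered by value within a line), with the mean and SD of each line (black). The 4 MCA943 tumors lie below the tumors of each other line for Axin2, Lef1 and Tcf7 and overlap those of MCA948 for Notum.

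Seen by line, MCA943 was set apart by members that were low. The members called lower in MCA943 than in each other line were Axin2, Fzd3, Fzd6, Lef1, Rspo1, Rspo4, Tcf7 and Wnt7b, 8 members beside 3.45% of all genes, and no member was called higher there than in each other line (4.26% of genes). In MCA948, Dkk2, Dkk3, Frzb and Wnt5a were lower (4 members, 5.68% of genes) and none was higher (0.753%). In MCA969, Sfrp4, Wif1, Wnt10a and Wnt16 were higher (4 members, 2.23%) and none was lower (0.516%). MCA970 had Frzb higher (1 member, 1.59%) and Wnt10b lower (1 member, 1.03%), and MCA972 had Rspo1 and Wnt2b higher (2 members, 2.47%) and Wnt10a, Wnt6 and Wnt9a lower (3 members, 1.10%). At least 1 of the 4 calls behind Axin2 and Fzd6 in MCA943, Sfrp4 and Wif1 in MCA969, Frzb and Wnt10b in MCA970 and Rspo1, Wnt2b and Wnt9a in MCA972 was lost in an alternative given above, and Dkk2, Dkk3, Frzb and Wnt5a in MCA948 and Wnt16 in MCA969 were not called between these lines within set 2. For Rspo1 in MCA943 the call below MCA948 rests on few counts, with a bound of at least 1.34-fold. Over the 4 comparisons of each line, the 40 tested members gave 160 results. MCA969 was called higher in 64 of them (40%, beside 13.2% over all genes) and lower in 17 (10.6%, beside 9.24%), and MCA970 higher in 51 (31.9%, beside 13.5%) and lower in 26 (16.2%, beside 10.5%). MCA972 was called higher in 52 (32.5%, beside 12.8%) and lower in 35 (21.9%, beside 9.85%), MCA943 higher in 27 (16.9%, beside 13.7%) and lower in 60 (37.5%, beside 13.6%), and MCA948 higher in 18 (11.2%, beside 8.27%) and lower in 74 (46.2%, beside 18.2%).

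Tumors of a line also differed among themselves. The median SD between tumors of a line, on the log2 scale, was higher for the tested members than for all tested genes in each line. It was 0.28 beside 0.19 in MCA972, 0.28 beside 0.14 in MCA943 and 0.31 beside 0.20 in MCA970. In MCA948 it was 0.42 beside 0.26 and in MCA969 0.51 beside 0.31. In MCA969, 5 members with at least 20 counts in each tumor spanned over 5-fold between their lowest and highest tumor: Sfrp2 (12.2-fold), Sfrp1 (7.05-fold), Notum (5.52-fold), Axin2 (5.37-fold) and Wnt10b (5.04-fold). Tumor W-2D was the lowest and W-1D the highest, the pair of tumors with the differing label of sensitivity, for each of these but Notum, which was lowest in W-1D. Axin2 was at 3.9 CPM in W-2D and 20.9 CPM in W-1D, and Wnt10b at 2.2 and 11.1 CPM. The endothelial markers summed to 73.9 CPM in W-2D and 199 CPM in W-1D, and the T-cell markers to 27 and 13.8 CPM, and their part in these values was not tested. Without both tumors, 209 of the 212 calls of members were still made and each kept its direction. The 3 lost calls were between MCA969 and MCA970, those of Frzb, Fzd3 and Fzd6. Their log2 fold changes of MCA969 relative to MCA970 were then -0.88, -0.97 and 0.95, under the threshold on the fold change. In the same setting 8 calls were new. In MCA970 the widest span among members with at least 20 counts in each tumor was that of Sfrp4, 9.95-fold.

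Other genes of the pathway were followed in 7 lists of 65 genes, of which 58 passed the filter and 30 differed between lines by the same rule, beside 58.0% of all genes. In the destruction complex and signal transduction, 3 of 15 tested genes were called: Nkd1 and Nkd2, which bind Dishevelled and restrain the pathway as feedback targets, and Dvl2. Nkd1 was at 0.0364 ± 0.0303 CPM in MCA943, 0.283 ± 0.248 in MCA948, 0.875 ± 0.25 in MCA972, 2.04 ± 0.345 in MCA970 and 7.38 ± 3.81 in MCA969, and was called in all 10 comparisons. Its MCA943 mean is under the 0.0906 CPM that 3 counts per library give there. Nkd2 was at 0.439 ± 0.266 CPM in MCA943 and 25 ± 8.26 CPM in MCA969 (log2 fold change 5.85, adjusted p = 3.77e-10, and 5.04 with the library-number set as a covariate). In the main fit both were called lower in MCA943 than in each other line, as Axin2 was. With the library-number set as a covariate, and likewise with the replicate block, Nkd1 had 8 calls. Nkd2 had 7 in each of these in place of 8. The other 12 tested genes of that list, among them Ctnnb1, which encodes beta-catenin, Apc, Axin1 and Gsk3b, had no call in any pair.

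Among the receptors of the R-spondins and the ligases they clear, 5 of 6 tested genes were called. Lgr5, an R-spondin receptor, was at 0.193 ± 0.156 CPM in MCA943 and 3.14 ± 2.16 CPM in MCA972 (log2 fold change 4.02, adjusted p = 0.000132), a call that the library-number set as a covariate ended (adjusted p = 0.193). Rnf43, a ligase that removes Frizzled receptors, was at 0.0459 ± 0.0734 CPM in MCA948 and 0.431 ± 0.183 CPM in MCA970 (log2 fold change 3.1, adjusted p = 0.000205, and 4.6 with the library-number set as a covariate). For secretion, Wls, which carries Wnt proteins to the cell surface, was at 319 ± 34.3 CPM in MCA969 and 1053 ± 97.9 CPM in MCA970 (log2 fold change 1.72, adjusted p = 4.48e-14), and Porcn, the enzyme that adds their lipid, was not called, with means from 4.24 ± 1.1 (MCA970) to 7.43 ± 2.8 CPM (MCA948).

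Of the 12 tested coreceptors and planar polarity genes 8 were called. The kinase Musk was at 0.104 ± 0.0776 CPM in MCA969 and 8.44 ± 4.32 CPM in MCA972, and the glypican Gpc3 at 0.279 ± 0.0439 CPM in MCA943 and 17.8 ± 9.17 CPM in MCA972 (log2 fold changes 6.30 and 5.99, the latter 3.17 with the library-number set as a covariate). The study singled out Musk on these tumors, so its values are no independent evidence. MCA972 was called higher in 16 of the 48 results of this list (33.3%, beside 12.8% over all genes) and lower in 0 (9.85% over all genes). Of the other antagonists and modulators 3 of 4 were called, among them Cthrc1, a secreted modulator, at 17 ± 4.42 CPM in MCA943 and 168 ± 28.1 CPM in MCA972, and Draxin, at 0.228 ± 0.202 and 2.17 ± 0.971 CPM. Of the nuclear partners 5 of 10 were called, with Pygo1 at 0.567 ± 0.207 CPM in MCA948 and 10.7 ± 3.54 CPM in MCA972 and Bcl9 at 21.8 ± 1.25 CPM in MCA943 and 78.3 ± 9.36 CPM in MCA970. Of the further reported targets 5 of 9 were called. Bmp4 was at 0.147 ± 0.084 CPM in MCA943 and 17.2 ± 6.11 CPM in MCA972 (log2 fold change 6.91, adjusted p = 2.07e-12), and Myc, a general growth regulator, at 133 ± 25.7 CPM in MCA970 and 1309.9 ± 797 CPM in MCA969 (log2 fold change 3.30, adjusted p = 6.63e-09). Ccnd1, Cd44, Twist1 and Id2 had no call in any pair. MCA943 was called lower in 10 of the 36 results of this list (27.8%, beside 13.6% over all genes) and higher in 1 (2.78%, beside 13.7%).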

How the data were processed

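RNA-seq of 30 tumors of 5 lines was analysed from the deposited table of read counts per gene. According to the methods, the labels and the submitters' processing notes, the authors aligned the reads with STAR (2.5.3a), removed duplicates by their unique molecular identifiers with Picard and counted reads per gene with featureCounts (1.5.2 in the notes), on GRCm38. These counts are raw, unnormalized whole numbers. Removal of duplicates lowers the totals and limits amplification noise. The strand setting of the counting is not given in the sources used here, and 18 of the 51 members overlap another gene, 17 of them on the opposite strand, so reads of such a pair cannot be told apart.

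Lines were compared with edgeR 4.0.16 (R 4.3.3) in 1 quasi-likelihood fit over all 30 tumors, with TMM normalization, filterByExpr (16862 of 48440 genes kept) and Benjamini-Hochberg adjustment over all genes tested. Calls were made at an adjusted p under 0.05 with a log2 fold change of 1 or more in either direction. CPM are counts per 1e+06 of TMM-scaled library size, and plots use log2 CPM with a prior count of 2. SE is that of the log2 fold change. A line with no count was given a limit of 3 counts per library, and lines with 1 to 3 counts a ratio with an exact binomial counting interval, both for counting error only. Depth was 27745104 to 46537062 counts per tumor, and the biological coefficient of variation was 0.221.

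The members, gene lists and alternatives were chosen with earlier results of these data known. Values of the tumors are given for the 14 members with the most calls, for any member called the same way between MCA943 or MCA969 and each of MCA948, MCA970 and MCA972 (6 comparisons), and for Lef1, Tcf7, Axin2 and Notum. For each list of pathway genes the 2 with the most calls are given. Fzd4 in MCA948 was chosen after its values were seen. Alternatives were DESeq2 1.42.0, limma-voom (limma 3.58.1), DESeq2 size factors, other filters and thresholds, covariates (library-number set, title letter, leukocyte score, tumor code of the title as replicate block), single library-number sets and leaving out each tumor. In counts simulated for MCA943 against MCA948 over 16454 genes, edgeR recovered 177 of 196 genes changed by 2 on the log2 scale and made 3 other calls, DESeq2 180 and 7, and limma-voom 175 and 4. The simulation gave all lines the same means apart from the changed genes and held no effect of library-number sets. It therefore cannot measure how many calls in these data are false. Whether tumor codes shared between lines pair tumors was checked: over 29 same-code pairs the correlation of deviations from the line means ran from -0.43 to 0.41, with 8 pairs above 0.1. No tumor was a copy of another. In all 83 pairs within a line, squared differences of counts were, averaged over genes, at least 14.5 times those that sampling noise gives. Promoter sequences came from RefSeq (GRCm38.p6), which held a promoter for 34 members. Gene names and positions came from GENCODE M21. Figures were drawn with matplotlib 3.10.9.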

Additional observations from a re-analysis of the deposited data

Results flagged for a closer look

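Among 79 groups of tumors (a member whose tumors are described, in a line) 7 held a tumor whose distance to the nearest other tumor, as a share of the whole range of log2 CPM, passed Dixon's limit. Chance alone gives about 1 in 20 such groups. Notum was high in MCA969 tumor WR, at 66.0 CPM beside 24.6 CPM in the next tumor (share 0.578). Wnt6 was low in MCA969 tumor W-2D, 1 of the 2 tumors with a differing label of sensitivity, at 0.0928 CPM beside 0.552 CPM (0.661). That value is 3 counts, which is at the limit of detection. Rspo2 was low in MCA972 tumor a-1G, at 5.04 CPM beside 6.57 CPM (0.841), and Tcf7 was high in MCA970 tumor W-1D, at 25.2 CPM beside 21.3 CPM (0.781). The other 3 rest on few counts as well: Rspo3 in MCA948 tumor W-2G, at 0 beside 0.0748 CPM (0.585), Wnt16 in MCA970 tumor W-2D, at 0.0736 beside 0.169 CPM (0.648), and Wnt16 in MCA943 tumor a-R, at 0.0490 CPM beside 0 in the 3 other tumors (1). None of these tumors was left out of a comparison.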

How the results depend on the processing

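No call of a member changed to the opposite call under any alternative run. Of the 212 calls, 211 were also made by DESeq2, 206 by limma-voom, 211 with DESeq2 size factors, 206 without a filter on low counts, 205 with the title letter, 207 with the leukocyte score as a covariate, and 207 to 212 when 1 tumor was left out. With the replicate block, the tumor code of the title, 187 of the calls were made, and between MCA970 and MCA972 it left 10 members called in place of 18. The check of the codes did not show that they pair tumors between lines and cannot exclude it, so this is given as a setting only. With the library-number set as a covariate 168 were made, 13 members were called between MCA948 and MCA969 in place of 22, and 0 in all 6 comparisons of MCA943 or MCA969 with MCA948, MCA970 or MCA972 in place of 1. Within library-number set 2, 1 member was called between MCA948 and MCA969 and 10 between MCA969 and MCA970. That set has fewer tumors, and those of MCA969 are W-1D and W-2D. A log2 fold change of at least 2 left 11 members called between MCA943 and MCA948, 14 between MCA943 and MCA972, 10 between MCA948 and MCA969, 10 between MCA948 and MCA970, 17 between MCA948 and MCA972, 7 between MCA969 and MCA970, 13 between MCA969 and MCA972, 7 between MCA970 and MCA972, 0 in all 6, and 3 higher and 5 lower than in each other line, in place of 7 and 16. With no threshold on the fold change, 34 were called between MCA943 and MCA969, 36 between MCA948 and MCA969, 27 between MCA969 and MCA970, 33 between MCA969 and MCA972, 2 in all 6 (Wnt6 and Wnt9a), and 18 higher and 26 lower than in each other line. Members with a mean of at least 1 CPM gave 13 calls between MCA969 and MCA972, 10 between MCA970 and MCA972, 0 in all 6 and 3 higher than in each other line, since fewer members were tested. For these other settings no share of all genes was taken, so their counts describe the members only. The cause of the changes with the covariates was not tested. Depth limits the members under 1 CPM: Wnt6, Wnt16, Rspo1 and Wif1 rest on few counts in at least 1 line.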
